A study of Mus musculus with 6 samples.

Results

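The genes of the protein kinase C (PKC) isoforms were followed in KH2 mouse embryonic stem cells with and without overexpression of human *HOXA13*. They are the 8 genes *Prkca*, *Prkcb*, *Prkcd*, *Prkce*, *Prkch*, *Prkci*, *Prkcq* and *Prkcz*, found by symbol among the 24393 features counted in each library. The set was selected on the counts of *Prkch*, which were more than 20-fold higher in HOXA13 cells in these same libraries, so the contrast of its members between the groups is given below as a description, with values, standard errors and no p-value, and isoforms past the threshold of the fit over all genes are only counted beside the share of all genes past it. RNA was sequenced from 3 control and 3 HOXA13 cultures, labelled with the strain C57/BL/6 and the genotypes CONTROL and HOXA13. Both groups are KH2 cells kept on irradiated 3T3-Swiss albino fibroblasts with LIF, and the labels state that neither group was treated. The study inserted *HOXA13* under a doxycycline-dependent promoter and selected targeted clones, and tested those clones with doxycycline, an agent the labels do not list for the sequenced cultures. Where HOXA13 libraries come from such clones, a difference between the groups cannot be told apart from one between clones. The study calls the libraries of each group biological replicates, and neither it nor the labels say whether they are separate clones, so p-values measure only the spread between these libraries.

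PKCs are serine and threonine kinases that are switched on at membranes. The conventional isoforms (*Prkca*, *Prkcb*) need calcium and diacylglycerol, the isoforms of the nPKC class (*Prkcd*, *Prkce*, *Prkch*, *Prkcq*) need diacylglycerol alone, and the atypical isoforms (*Prkci*, *Prkcz*) need neither and work with the Par polarity proteins. Diacylglycerol is made by phospholipases C and removed by diacylglycerol kinases, and phorbol esters take its place on the C1 domain of conventional and nPKC isoforms. In mouse embryonic stem cells PKC activity is known as a signal that favours exit from self-renewal, and *Prkch* is best known from differentiating epithelium and from lymphocytes.

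The isoforms are related in sequence, so it was checked whether a read of 75 bases could belong to more than one of them. Among the 28 pairs of coding sequences in the GENCODE transcripts of build NCBIM37 (mm9), no pair shared an identical stretch of 75 bases. The closest 75-base windows of any pair were those of *Prkca* and *Prkcb*, with 4 mismatches, followed for *Prkci* and *Prkcz* by 7. The isoform closest to *Prkch* was *Prkce*, and their most similar window differed at 10 of 75 positions.

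Libraries held between 13494135 and 21766589 counts, and at these depths 3 counts, taken as the smallest level a library can show, correspond to 0.138 to 0.222 CPM (counts scaled to a common library size). The inserted gene, counted under the human identifier ENSG00000106031, was counted 6, 0 and 0 times in control and 4298, 4177 and 2881 times in HOXA13 libraries. Of 13846 genes that passed the filter on low counts, 27.7% passed edgeR's quasi-likelihood test at an adjusted p of 0.05 (14.4% higher and 13.3% lower in HOXA13 cells), and in 45.7% the CPM values of the groups did not overlap (23.5% higher, 22.2% lower). These shares are the background for every count below. Of the PKC isoforms 7 passed the filter, and *Prkcq* did not. Among these 7, *Prkch* and *Prkci* were higher and *Prkcb* was lower past that threshold, and *Prkcd* was the other tested gene without overlap between the groups. Since the contrast chose the set, nothing is read from these counts.

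*Prkch*, an nPKC isoform on chromosome 12 of mm9 (74685783 to 74879172, plus strand), was counted 23, 10 and 21 times in control and 502, 467 and 293 times in HOXA13 libraries. In CPM these are 1.02, 0.679 and 1.06 against 25.5, 25.7 and 22.1. Every HOXA13 library was thus far above every control library, and the HOXA13 libraries lay close together. The means were 0.921 ± 0.211 CPM and 24.4 ± 1.99 CPM (SD, n = 3), a 25.8-fold difference (log2 fold change 4.69, standard error 0.17). Among all tested genes, 16 had a larger log2 fold change. The gene was detected in control cells, since all 3 control libraries were above the 3-count floor. Across 15 other ways of processing the counts its log2 fold change stayed between 4.54 and 4.79. In a bulk sample, more cells with *Prkch* RNA and more *Prkch* RNA per cell cannot be told apart.

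*Prkcq*, the nPKC isoform best known from T cells, lies on chromosome 2 (11093740 to 11222853, plus strand) and was barely detected. Its counts were 1, 1 and 0 in control and 8, 9 and 6 in HOXA13 libraries. The groups did not overlap, and all control libraries were under the 3-count floor. Summed over libraries, 2 counts stood against 23, a ratio of 12.8 per sequenced count with a 95% counting interval from 3.17 to 112. Against the 20-fold mark of the choice, *Prkch* lay inside at 25.8-fold, and the nearest values outside were this ratio and the 1.59-fold difference of *Prkci*.

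The other nPKC isoforms had log2 fold changes near 0. *Prkcd* (chromosome 14, 31408542 to 31439396, minus strand), an isoform linked to apoptosis and differentiation, was at 43.8, 47.7 and 42.4 CPM in control and 49.3, 53.1 and 52.4 CPM in HOXA13 libraries. Its groups did not overlap, but the gap was small beside the spread. Means were 44.7 ± 2.76 and 51.6 ± 2.03 CPM (SD, n = 3), a log2 difference of 0.21 (standard error 0.077). Over the 470 tested genes of chromosome 14 the median difference was 0.27, and the value of *Prkcd* was −0.08 once each chromosome was centred in each library. Without control replicate 2 it was 0.25. *Prkce* (chromosome 17, 86567125 to 87057259, plus strand), the closest relative of *Prkch*, was at 9.31, 14.1 and 10.5 CPM in control and 10.2, 12.0 and 14.9 CPM in HOXA13 libraries. Here the groups overlapped almost fully. The log2 fold change was 0.13 (standard error 0.19).

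**Figure D1:**
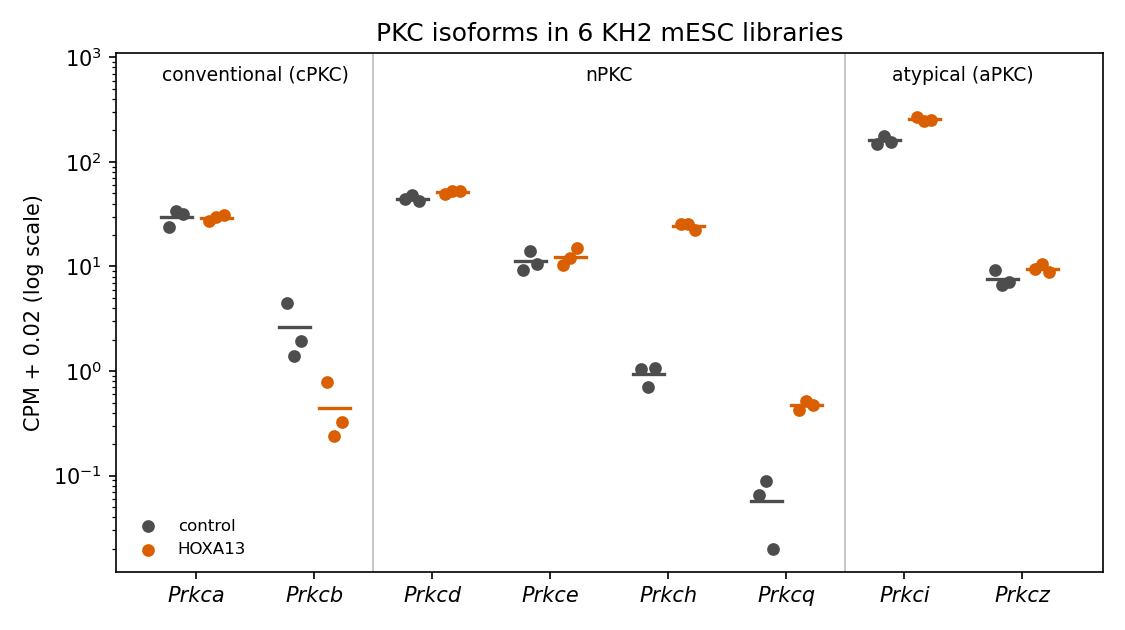
CPM plus 0.02 of each PKC isoform on a log axis, with 1 point per library (3 control in grey, 3 HOXA13 in orange) and a bar at the group mean, isoforms being grouped by class. *Prkch* moves from about 1 CPM to between 22.1 and 25.7 CPM, *Prkci* lies higher and *Prkcb* lower in every HOXA13 library, and the groups overlap for *Prkca*, *Prkce* and *Prkcz*.

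Of the atypical isoforms, *Prkci* (chromosome 3, 30894669 to 30951663, plus strand), the kinase of the Par polarity complex, was the most highly counted PKC gene. It had 149, 175 and 157 CPM in control and 269, 247 and 250.1 CPM in HOXA13 libraries. All HOXA13 libraries were above all control libraries, and the gap between the groups was wider than the range within either. Means were 160.2 ± 13.4 and 255 ± 11.7 CPM (SD, n = 3), which is 1.59-fold (log2 fold change 0.67, standard error 0.076), with a range of 0.60 to 0.73 over the 15 alternatives. *Prkcz* (chromosome 4, 154634238 to 154735470, minus strand), the other atypical isoform, was at 9.27, 6.59 and 7.07 CPM in control and 9.34, 10.5 and 8.84 CPM in HOXA13 libraries. Control replicate 1 lay among the HOXA13 libraries, so that the groups overlapped. The log2 fold change was 0.32 (standard error 0.16), and it was 0.48 without control replicate 1.

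The conventional isoforms differed from each other. *Prkca* (chromosome 11, 107794701 to 108205242, minus strand), the most widely expressed conventional isoform, was at 23.7, 33.8 and 32.0 CPM in control and 27.2, 29.4 and 31.2 CPM in HOXA13 libraries. The HOXA13 values fell inside the range of the control values. Its log2 fold change was −0.02 (standard error 0.14), and it lay between −0.17 and 0.07 over the alternatives. *Apoh*, on the opposite strand within the same locus, had at most 2 counts in any library. *Prkcb* (chromosome 7, 129432265 to 129777916, plus strand), known from B cells, was counted 101, 20 and 38 times in control and 15, 4 and 4 times in HOXA13 libraries. In CPM these are 4.50, 1.36 and 1.92 against 0.761, 0.220 and 0.302. Control replicate 1 stood out above the other control libraries, and every HOXA13 library was below them. Means were 2.59 ± 1.68 and 0.428 ± 0.292 CPM (SD, n = 3), and *Prkcb* was 5.89-fold lower in HOXA13 cells (log2 fold change −2.56, standard error 0.59). With so few counts the value moved between −3.32 and −1.88 over the alternatives. It was at or above the 10-count level of the filter in all 3 control libraries but in only 1 HOXA13 library, so it entered the fit through the group where it was high, and its place past the threshold is no support for the difference. Markers of mesendoderm, the early tissue that embryonic stem cells can turn into in culture, were ordered over the control libraries as *Prkcb* was. The summed CPM of the 6 listed genes was 404 in control replicate 1, 37.4 in control replicate 2 and 180 in control replicate 3, against 16.5 to 18.0 in HOXA13 libraries, so that every HOXA13 library was below every control library. The order of the control libraries, 1 over 3 over 2, was shared by 25.5% of all tested genes and by 47.2% of those that fell. The part of mesendoderm cells in the difference of *Prkcb* was not tested.

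**Figure D2:**
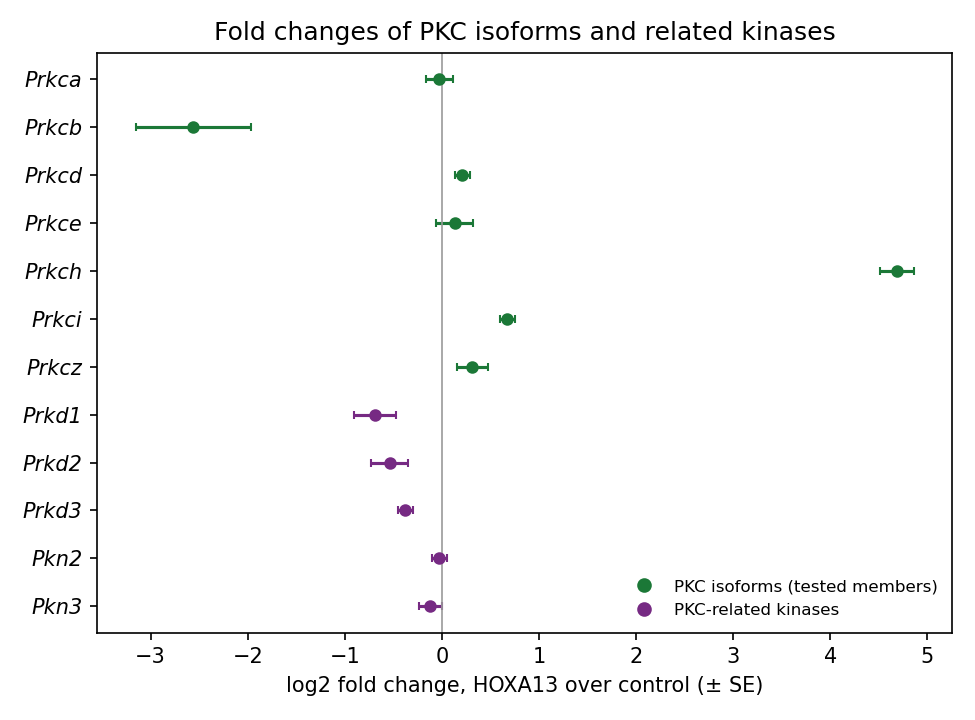
Log2 fold change (HOXA13 over control) of the 7 tested PKC isoforms in green and of 5 PKC-related kinases in purple, with the standard error as a bar. *Prkch* is at 4.69, *Prkci* at 0.67 and *Prkcb* at −2.56, the other isoforms lie between −0.02 and 0.32, and the related kinases, described further on, lie between −0.69 and −0.02.

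Levels of different isoforms were compared as CPM per kilobase of merged exons, in which a longer gene does not appear higher for its length. In control cells the order was *Prkci* (30.0 ± 2.52), *Prkcd* (8.96 ± 0.554), *Prkca* (3.32 ± 0.603), *Prkce* (1.56 ± 0.345), *Prkcz* (1.21 ± 0.226), *Prkcb* (0.546 ± 0.353), *Prkch* (0.200 ± 0.0456) and *Prkcq* (0.0057 ± 0.0052; SD, n = 3 for each level). Only *Prkce* and *Prkcz* were neighbours whose ranges over libraries overlapped. In HOXA13 cells *Prkch* was the third, at 5.29 ± 0.431 CPM per kilobase, behind *Prkci* (47.9 ± 2.19) and *Prkcd* (10.4 ± 0.407) and ahead of *Prkca* (3.26 ± 0.220). Below *Prkca* followed *Prkce* (1.70 ± 0.325) and *Prkcz* (1.51 ± 0.131), whose ranges overlapped, and *Prkcb* (0.0901 ± 0.0614) and *Prkcq* (0.0684 ± 0.0068), whose ranges overlapped too. With the length of the longest transcript in place of merged exons, *Prkce* and *Prkcz* changed places and the other isoforms kept their order.

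The summed level of the 8 isoforms was 43.3, 49.6 and 44.7 CPM per kilobase in control and 71.9, 69.2 and 69.3 in HOXA13 libraries. The groups were well apart, and most of the gap was the level of *Prkci*. As a share of this sum, *Prkch* went from 0.441 ± 0.125% to 7.54 ± 0.569% (SD, n = 3). The share of *Prkci* was 65.5 ± 0.868% in control and 68.2 ± 1.63% in HOXA13 cells, and that of *Prkcd* was 19.6 ± 0.664% and 14.8 ± 0.889%. By class, conventional isoforms held 8.44 ± 0.387% and 4.78 ± 0.332%, nPKC isoforms 23.4 ± 0.516% and 24.9 ± 1.26%, and atypical isoforms 68.2 ± 0.219% and 70.4 ± 1.51%. The nPKC class thus held a similar share of the RNA in both groups, within which *Prkch* took a larger and *Prkcd* a smaller part in HOXA13 cells. These are shares of RNA and not of protein.

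**Figure D3:**
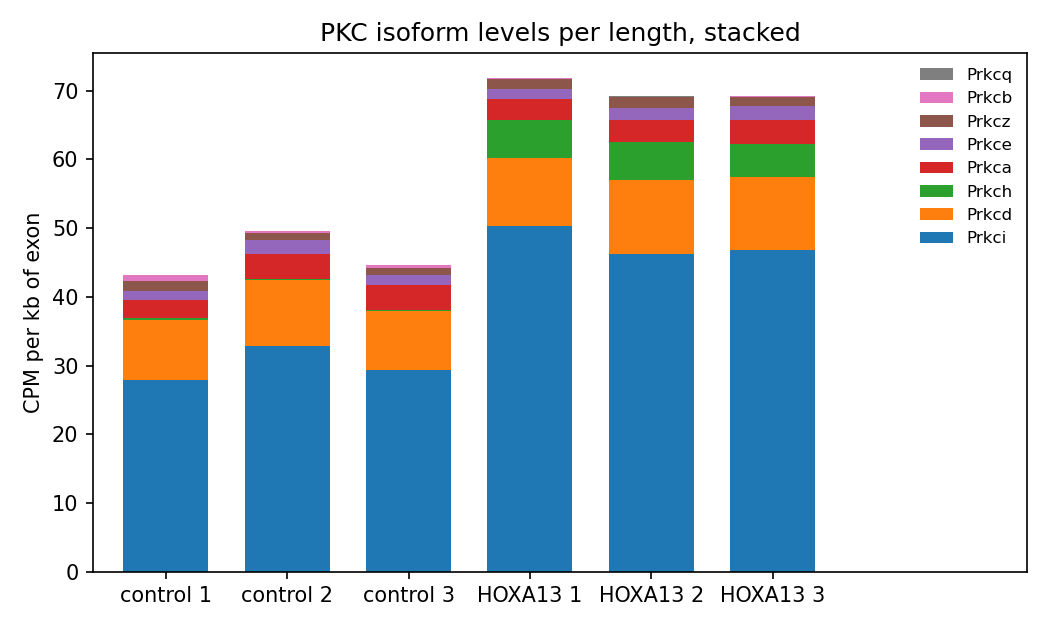
Stacked level of the 8 PKC isoforms in CPM per kilobase of merged exons, with 1 column for each of the 6 libraries and 1 colour per isoform. *Prkci* is the largest segment in every library, the columns end at 43.3 to 49.6 in control and at 69.2 to 71.9 in HOXA13 libraries, and the *Prkch* segment is visible in HOXA13 libraries alone.

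The genes whose profile over the 6 libraries was most like that of *Prkch* were ranked by the root mean square difference of centred log2 CPM, in which 0 would be an identical profile. They included *Aqp9* (0.141), *Htr5b* (0.264), *Hesx1* (0.329) and *BC064078* (0.413). *Hesx1*, a homeobox repressor of the anterior embryo, had 16 to 25 counts in control and 377 to 607 counts in HOXA13 libraries, and like *Prkch* it was counted in all libraries of both groups. The glycerol channel gene *Aqp9* was much lower, with 1 to 3 counts in control libraries. Most like *Prkci* were *Ezh2* (0.014), the methyltransferase of Polycomb complex PRC2, *Fam168a* (0.023) and *Tor1aip2* (0.028). Most like *Prkcb* were *Calcr* (0.319), *H2-Q4* (0.329) and *Gria4* (0.355), each of which was highest in control replicate 1. With 6 libraries in 2 groups, likeness mostly reflects a difference of the same size between the groups.

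No tested gene near *Prkch* had a difference of similar size. Of the 9 genes counted within 500 kb of *Prkch*, 7 were tested, of which 1 was higher and 1 lower. The nearest one, *Tmem30b*, a subunit of lipid flippases 38401 bases upstream, was at 8.73, 7.06 and 6.21 CPM in control and 11.7, 11.1 and 10.0 CPM in HOXA13 libraries. It was higher in every HOXA13 library, by a log2 fold change of 0.58 (standard error 0.16, edgeR adjusted p = 0.0273), and lost its call in 4 of the 6 fits with a single library removed (adjusted p up to 0.112, without HOXA13 replicate 1). *Six4*, a homeobox gene 471382 bases upstream, fell by 0.44 on the log2 scale (standard error 0.085, edgeR adjusted p = 0.00674). *Hif1a*, the hypoxia factor 123190 bases downstream, was at a log2 fold change of 0.01 (standard error 0.065, edgeR adjusted p = 0.929), and *Mnat1* (0.03), *Trmt5* (−0.13), *Slc38a6* (0.12) and *Snapc1* (0.14) did not pass either. Of the remaining neighbours, *D830013O20Rik* had no counts and *Syt16* at most 4 in a library. Over the tested genes of chromosome 12 the median was −0.01.

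**Figure D4:**
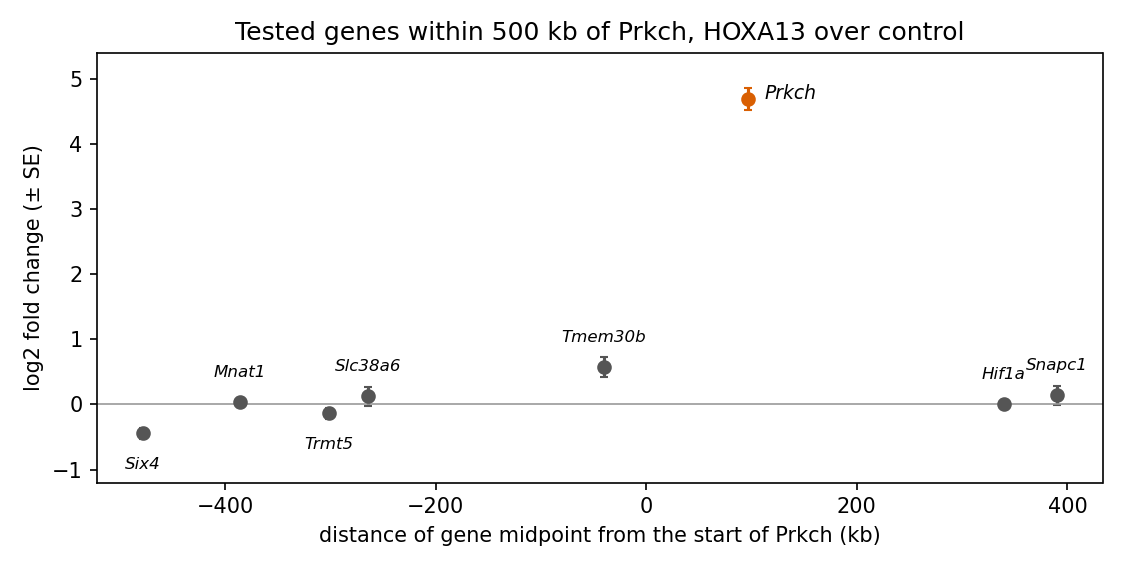
Log2 fold change (HOXA13 over control, bars are standard errors) of *Prkch* in orange and of the 7 tested genes within 500 kb of it in grey, by the distance of the gene's midpoint from the start of *Prkch* in kb. *Prkch* is at 4.69, and its neighbours lie between −0.44 and 0.58.

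Around the other isoforms, the nearest tested gene on each side was taken, which gave 14 genes, of which none was higher and 3 were lower in edgeR's test, with 0 higher also at an unadjusted p under 0.05, in DESeq2 and in limma-voom. *Skil*, a repressor of SMAD signalling 42317 bases downstream of *Prkci*, fell by 0.77 on the log2 scale (standard error 0.081, edgeR adjusted p = 0.000455), while *Prkci* itself was higher. The glycolytic regulator *Pfkfb3*, beside *Prkcq*, fell by 0.92 (standard error 0.14, edgeR adjusted p = 0.00231). *Cfap74*, beside *Prkcz*, fell by 0.59 (standard error 0.17, edgeR adjusted p = 0.0318), with an adjusted p of up to 0.127 when 1 library was left out (HOXA13 replicate 2). The genes that did not pass included *Phc3* beside *Prkci*, *Helz* and *Cep112* beside *Prkca*, *Plk1* and *Rbbp6* beside *Prkcb*, *Tkt* beside *Prkcd*, *Srbd1* and *Epas1* beside *Prkce*, *Sfmbt2* beside *Prkcq* and *Faap20* beside *Prkcz*.

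The 8 lists of genes that act around the isoforms were read from the same fit. They hold 96 genes, of which 90 were tested, 17 rose and 19 fell past the same threshold, with a median log2 fold change of −0.08 against 0.00 over all tested genes. Of these 36 genes, 15 were past the threshold in every alternative that tested them. Leaving out HOXA13 replicate 1, 2 or 3 lost 21, 17 and 17 of the 36, and leaving out control replicate 1, 2 or 3 lost 5, 0 and 10. Where a gene of these lists is named below with an adjusted p for a library left out, that fit gave its highest value, and genes called without one passed with any single library left out. Of the 19 genes that fell, 8 (42.1%) had the order of control libraries that *Prkcb* and the summed mesendoderm markers had. Among all genes past the threshold and lower that share was 47.2%, so the listed genes did not have this order more often. The 8 were *Dgkk*, *Plch1*, *Ppp1r14c*, *Prkd1*, *Prkd3*, *Prr5*, *Rasgrp1* and *Rbck1*, and the part of mesendoderm cells in their falls was not tested.

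Among the kinases most like PKC, 4 of 7 tested genes fell and none rose in edgeR's test, with a median log2 fold change of −0.38. No gene of the list was higher at an unadjusted p under 0.05, in DESeq2 or in limma-voom either. Protein kinases D, which PKC phosphorylates and switches on, include *Prkd3*, which fell by 0.38 (standard error 0.073, edgeR adjusted p = 0.00726), and *Prkd1*, which fell by 0.69 (edgeR adjusted p = 0.0495, and 0.157 without HOXA13 replicate 1). The PKC-related kinase *Pkn2*, the most highly counted gene of the list at 170.2 CPM in control, had a log2 fold change of −0.02. With 1 library left out the list held between 2 and 5 lower genes, the lowest count being without control replicate 3, HOXA13 replicate 1 or HOXA13 replicate 2.

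The enzymes that make and remove diacylglycerol were split. Of 13 phospholipases C, 10 were tested, of which 2 rose and 2 fell (median log2 fold change −0.10). *Plch2* rose by 1.12 (edgeR adjusted p = 0.0304, and 0.128 without HOXA13 replicate 2) and *Plce1* by 0.74 (edgeR adjusted p = 0.0443, and 0.144 without control replicate 3). *Plcd3* fell by 0.60 (edgeR adjusted p = 0.0139, and 0.0711 without HOXA13 replicate 1) and *Plch1* by 0.49 (edgeR adjusted p = 0.0423, and 0.157 without HOXA13 replicate 2). None of these 4 calls held with every single library left out, and the most highly counted members, *Plcb3* (−0.12) and *Plcg1* (−0.31), did not pass. Of 10 diacylglycerol kinases, 8 were tested, of which 1 rose and 3 fell (median −0.13). *Dgkh* fell from 14.9 ± 2.71 to 7.67 ± 1.23 CPM (SD, n = 3), a log2 difference of −0.96 (standard error 0.17, edgeR adjusted p = 0.00529). *Dgkk* fell by 1.86 (edgeR adjusted p = 0.0222, and 0.0878 without HOXA13 replicate 1) and *Dgki* by 1.27 (edgeR adjusted p = 0.0461, and 0.165 without HOXA13 replicate 1). Counts of *Dgki* were 32, 12 and 14 in control and 7, 9 and 5 in HOXA13 libraries. All HOXA13 libraries were under the 10-count level of the filter, so *Dgki* entered the fit through the group where it was high. Its place among the 3 that fell is therefore no support for the difference. *Dgkd* rose by 0.26 (edgeR adjusted p = 0.0244, and 0.0954 without HOXA13 replicate 3), on chromosome 1, where the median over tested genes was 0.38, and was at −0.12 with each chromosome centred. *Dgkz* (−0.16) and *Dgke* (−0.10) did not pass.

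Other proteins bind diacylglycerol through a C1 domain as PKC does. Of 9 tested genes of this kind 2 rose and 1 fell, with a median log2 fold change of −0.33. *Rasgrp1*, a Ras activator of lymphocytes, had 10.4 ± 2.26 CPM in control and 2.28 ± 0.523 CPM in HOXA13 cells (SD, n = 3), and fell by 2.21 (standard error 0.23, edgeR adjusted p = 0.000427). *Unc13a*, a priming factor of synaptic vesicles, rose by 0.72 (edgeR adjusted p = 0.0386, and 0.134 without HOXA13 replicate 2). *Chn1*, a GTPase-activating protein for Rac, rose by 0.55 (edgeR adjusted p = 0.0189, and 0.0812 without HOXA13 replicate 1). The more highly counted *Unc13b* (0.16) and *Rasgrp2* (0.38) did not pass.

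New PKC protein must be phosphorylated before it can respond, and 3 of the 12 tested genes for this priming and for turnover rose while 2 fell (median 0.01). *Pdpk1*, the kinase of the activation loop, had 100.5 ± 10.1 CPM in control and 155 ± 3.83 CPM in HOXA13 cells (SD, n = 3), and rose by 0.63 (standard error 0.082, edgeR adjusted p = 0.00126). *Rictor*, a subunit of mTORC2, which phosphorylates the tail of PKC, rose by 0.39 (edgeR adjusted p = 0.0128, and 0.0649 without HOXA13 replicate 1), and *Prr5*, of the same complex, fell by 0.75 (edgeR adjusted p = 0.0265, and 0.117 without HOXA13 replicate 1). The chaperone *Hsp90ab1* rose by 0.25 (edgeR adjusted p = 0.0171, and 0.0779 without HOXA13 replicate 2). *Rbck1*, a ubiquitin ligase, fell by 0.31 (edgeR adjusted p = 0.0307, and 0.122 without HOXA13 replicate 1). *Cdc37* (−0.08), a kinase chaperone, and *Mtor* (−0.16) did not pass.

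Of 18 scaffolds and substrates 17 were tested, of which 2 rose and 4 fell (median −0.16). *Gap43*, a neuronal substrate, had 21.3 ± 1.66 CPM in control and 7.52 ± 0.363 CPM in HOXA13 cells (SD, n = 3), and fell by 1.50 (standard error 0.11, edgeR adjusted p = 7.66e-05). *Akap12*, a scaffold of PKC and PKA, fell by 0.41 (standard error 0.054, edgeR adjusted p = 0.00131). The inhibitors of myosin phosphatase *Ppp1r14c* and *Ppp1r14a* fell by 1.92 (edgeR adjusted p = 0.0178, and 0.084 without HOXA13 replicate 1) and by 1.34 (edgeR adjusted p = 0.0126, and 0.0637 without HOXA13 replicate 1). The substrates that rose were *Add3*, an adducin of the membrane skeleton, by 0.58 (standard error 0.077, edgeR adjusted p = 0.00138), and *Marcksl1*, a relative of the classical substrate MARCKS, by 0.52 (standard error 0.053, edgeR adjusted p = 0.000385). *Gnb2l1*, which encodes the scaffold RACK1, was the most highly counted gene of the list and had a log2 fold change of 0.03, and *Add1* was at 0.16, neither past the threshold.

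Among the partners of the atypical isoforms, 1 of 15 tested genes rose and 2 fell, with a median log2 fold change of 0.00. *Llgl2*, which aPKC phosphorylates to set epithelial polarity, had 92.4 ± 13.5 CPM in control and 157 ± 12.3 CPM in HOXA13 cells (SD, n = 3), and rose by 0.77 (standard error 0.11, edgeR adjusted p = 0.00193). Its paralogue *Llgl1* fell by 0.52 (edgeR adjusted p = 0.0414, and 0.147 without HOXA13 replicate 1). *Pard6g*, a subunit of the Par complex, fell by 0.51 (standard error 0.084, edgeR adjusted p = 0.0035). The Par complex GTPase *Cdc42* (0.12) and the aPKC-binding adaptor *Sqstm1* (0.13), the most highly counted members, did not pass.

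Immediate early genes are switched on within minutes by phorbol esters, and by many other stimuli. Of 12 tested genes 6 rose and 1 fell, with a median log2 fold change of 0.31. *Fos* had 174 ± 24.0 CPM in control and 329 ± 14.6 CPM in HOXA13 cells (SD, n = 3), and rose by 0.92 (standard error 0.10, edgeR adjusted p = 0.000533). *Fosb* rose by 0.52 (standard error 0.069, edgeR adjusted p = 0.00133). *Egr1* rose by 0.54 (edgeR adjusted p = 0.0102, and 0.055 without HOXA13 replicate 1) and *Junb* by 0.46 (edgeR adjusted p = 0.0178, and 0.0754 without HOXA13 replicate 3). *Ier2* fell by 0.32 (standard error 0.065, edgeR adjusted p = 0.00817). *Jun*, at 138 ± 4.45 CPM in control, had a log2 fold change of −0.11 and did not pass, and neither did *Ier3* (0.04). With 1 library left out between 3 and 6 genes of the list were higher, the lowest count being without HOXA13 replicate 1.

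**Figure D5:**
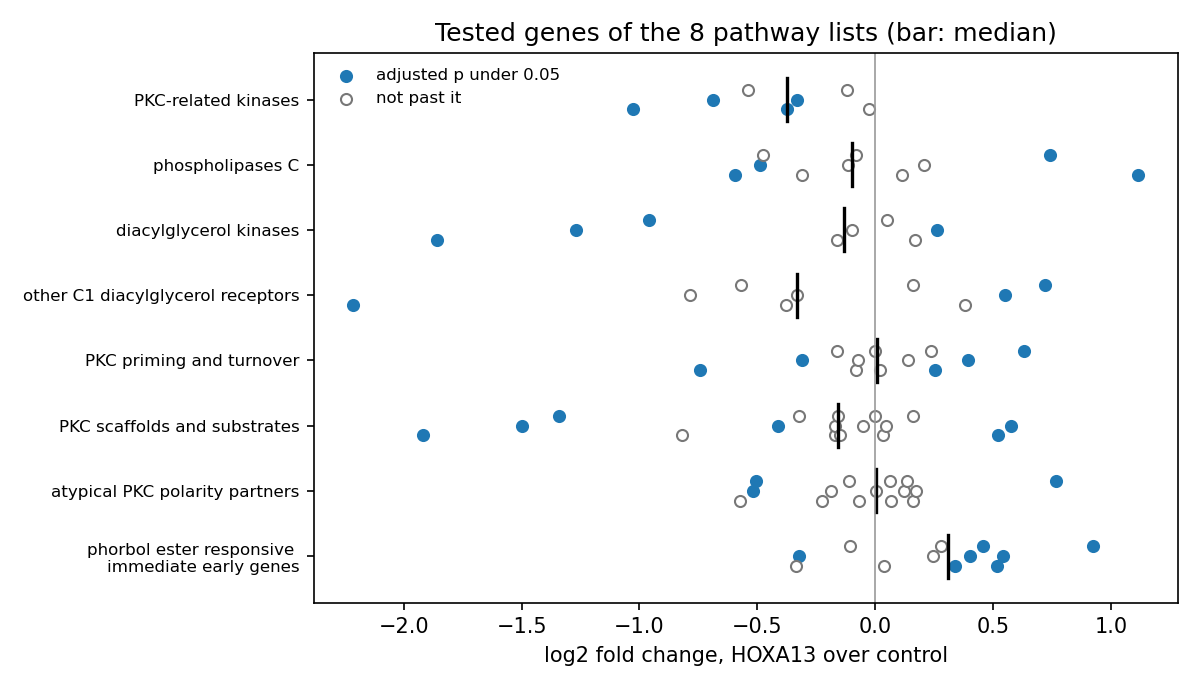
Log2 fold change (HOXA13 over control) of the tested genes of the 8 lists, with 1 point per gene, filled in blue where the adjusted p is under 0.05 and open otherwise, and a black bar at the median of each list; the vertical offset of points has no meaning. The medians lie between −0.38 for the PKC-related kinases and 0.31 for the immediate early genes.

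*Prkch* and its relatives are also expressed in cells other than embryonic stem cells, and markers of such cells were read beside them. The 9 embryonic stem cell markers summed to 2450 to 3417 CPM in control and 3410 to 3523 CPM in HOXA13 libraries, and 4 were higher and 1 lower, of which *Sox2*, *Esrrb* and *Klf4* lost their calls when single libraries were left out (adjusted p up to 0.134 without HOXA13 replicate 2, 0.123 without control replicate 3 and 0.109 without HOXA13 replicate 1). The 10 fibroblast markers, which the feeder cells would contribute, took 0.372 to 0.569% and 0.498 to 0.638% of the counts. None of the 10 passed edgeR's test, 1 was higher at an unadjusted p under 0.05, and DESeq2 called 1 higher and limma-voom 0. Of 10 markers of stratified epithelium, where *Prkch* is known to be expressed, 4 were tested and 1, *Tgm3*, was higher (edgeR adjusted p = 0.0436, and 0.14 without HOXA13 replicate 3). Over the whole list the groups did not overlap in CPM for 6 genes, of which *Tgm3*, *Trp63* and *Dsg3* were higher and *Krt14*, *Lor* and *Tgm1* lower in HOXA13 libraries, none but *Tgm3* past the threshold and all but *Tgm3* and *Tgm1* below the filter. *Krt5* had at most 3 counts in a library, and the list summed to 37.9 to 86.3 CPM in control and 36.4 to 38.6 CPM in HOXA13 libraries. Of 9 markers of T cells and other blood cells, 4 were tested and 1 was higher. That gene was *Lck*, a Src family kinase, which rose by 1.30 (standard error 0.080, edgeR adjusted p = 3.3e-05) and made most of the summed level of 26.4 to 28.2 CPM in control and 60.2 to 65.9 CPM in HOXA13 libraries, whereas *Cd8a* had no counts and *Cd3g* at most 1 in a library. Of 4 markers of megakaryocytes and mast cells 2 were tested and *Kit* rose by 0.95 (standard error 0.18, edgeR adjusted p = 0.00662), with *Cpa3* at 0 counts in all libraries and a summed level of 32.5 to 58.0 CPM in control and 81.9 to 87.7 CPM in HOXA13 libraries. The part of the cells these lists mark in the difference of *Prkch* was not tested.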

How the data were processed

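The authors made stranded libraries (NEBNext), aligned 75-base reads with TopHat to build mm9, and used HTSeq to count reads in genes. The submitters' processing notes list TopHat2 2.0.14, HTSeq 0.6.1p1 and bcl2fastq 2.17. The annotation, counting mode and strand setting are not given in the sources used here. The deposited values are raw counts per gene, 1 table per library, without lines for unassigned reads.

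Counts were tested with edgeR 4.0.16 in R 4.3.3, with filterByExpr (minimum count 10, minimum total 15), TMM factors, glmQLFit and glmQLFTest without covariates, and Benjamini-Hochberg adjustment over all 13846 tested genes at 0.05. CPM uses TMM-scaled library sizes, and log2 fold changes a prior count of 0.125. A standard error is |log2 fold change| / √F. Levels per kilobase use merged exons of GENCODE vM1 (NCBIM37), which is also the source of positions and of the coding sequences compared. Likeness used a prior count of 2. Counting intervals and the 3-count floor cover counting error only. Same-numbered libraries of the groups did not deviate together. Counts were also simulated with the same dispersion for every gene and with few genes changed. Of these, 93 of 97 genes changed by 1 on the log2 scale and 100 of 100 changed by 2 were recovered, with 7 false calls among 13726 genes. The real libraries differ from these settings, so the simulation checks the code and does not measure recovery in these data.

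The alternatives were other scalings and filters, a replicate block, robust estimation, DESeq2 1.42.0, limma-voom (limma 3.58.1), centring each chromosome, and leaving out each library. Named genes are all members, at most the 4 largest changes in each direction past the threshold and the 2 most highly counted other genes of each list, the neighbours, and the genes most alike, of which some are not reported here. The members and lists were chosen with earlier results of these data known. Figures were drawn with matplotlib 3.10.9.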

Additional observations from a re-analysis of the deposited data

How the results depend on the processing

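Over the 15 alternatives the log2 fold change stayed between 4.54 and 4.79 for *Prkch* and between 0.60 and 0.73 for *Prkci*. The set was selected on these counts, so the counts of isoforms past the threshold are a description, and *Prkcb* entered the fit through the control group alone. With at least 10 counts in every library *Prkcb* was not tested, and 0 isoforms were lower. Leaving out 1 library gave 2 to 3 isoforms higher and 0 to 1 lower, 7 to 19 listed genes higher and 8 to 26 lower, 0 to 1 gene within 500 kb of *Prkch* higher and 1 lower, and a *Prkch* share of 7.30 to 7.85%. With each chromosome centred, *Dgkd* turned from 0.26 to −0.12 (edgeR adjusted p = 0.3) and *Tkt* from 0.00 to −0.28 (edgeR adjusted p = 0.0245). Scaling by library size alone moved the median of all genes by −0.07 and gave 1577 higher and 2499 lower genes in place of 1994 and 1842, and leaving out 1 library gave 2038 to 5007 in all. The fit with the replicate number as a block gave 2 isoforms higher and 1 lower, 16 listed genes higher and 14 lower, 1 gene near *Prkch* higher and 1 lower, and 1696 higher and 1476 lower genes over all. The numbers share no stated origin, and same-numbered libraries correlated at −0.015, −0.045 and 0.018. Isoforms under about 1 CPM, which are *Prkcq*, *Prkcb* in HOXA13 cells and *Prkch* in control cells (10 to 23 counts), are limited by depth. The cause of each change with the processing was not tested.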
